A study of Mus musculus with 8 samples.

Results

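The 10 genes described here encode enzymes that build and break down triglyceride: Gpam, Agpat2, Lpin1, Lpin2, Mogat1, Dgat1, Dgat2, Pnpla2, Pnpla3 and Lipe. They were taken by symbol from a list of enzymes by function, drawn up with earlier results of these data known, and all 10 were found among the 55401 genes of each deposited table. Of these, 9 had enough counts to be tested and Pnpla3 did not. They were measured in bulk liver RNA from C57BL/6J mice on day 2 after partial hepatectomy, an operation that takes out liver lobes and sets off regrowth of the rest. The 4 shTbl1xr1 libraries came from mice given an adeno-associated virus that delivers a short hairpin RNA against Tbl1xr1 to hepatocytes, and the 4 shNC libraries from mice given a control hairpin in the same way. The virus was given 4 weeks before surgery, and both groups had surgery, so no unoperated liver stands in the comparison. Neither age nor sex was stated. Replicates were numbered without a statement on whether they were different animals, and every p-value below therefore covers the library-to-library spread alone, which may be technical.

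Triglyceride is made in hepatocytes by adding fatty acids to glycerol 3-phosphate one after another. Glycerol-3-phosphate acyltransferases, of which Gpam is the mitochondrial one, add the first chain and AGPAT enzymes the second, giving phosphatidate. Lipins remove its phosphate to give diacylglycerol, and the DGAT enzymes add the last chain. Stored triglyceride is cut back by Pnpla2 (adipose triglyceride lipase, ATGL), then by hormone-sensitive lipase (Lipe) and monoacylglycerol lipase. During regeneration after hepatectomy the mouse liver is known to store fat for a time, and Tbl1xr1 belongs to the NCoR corepressor complex, which holds down many lipid genes in liver.

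Library totals were 10895508 to 36720879 expected counts in shTbl1xr1 and 25811763 to 27537235 in shNC. Libraries shTbl1xr1 1 and 2, called the shallow pair here, were the only ones below the shNC range. Mitochondrially encoded genes took 11.3% and 14.8% of their counts, 4.52% and 6.26% in shTbl1xr1 3 and 4, and 4.96% to 7.34% in shNC. Tbl1xr1 itself had 2.38, 2.07, 9.24 and 15.9 CPM (a count relative to the size of its library, with libraries brought to one scale by the TMM method) in shTbl1xr1 1 to 4, and 27.2, 35.9, 33.7 and 34.6 CPM in shNC 1 to 4. The groups did not overlap (two-sided exact permutation p = 0.0286, the smallest that 4 against 4 can give), although the edgeR adjusted p over all genes was 0.29. Tbl1xr1 was lower in the shallow pair than in shTbl1xr1 3 and 4, so depth, mitochondrial share and residual Tbl1xr1 cannot be told apart there. In bulk tissue, fewer cells of a type and less RNA per cell cannot be told apart either.

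None of the 9 members tested passed an adjusted p of 0.05 over all genes by edgeR's quasi-likelihood test, in which 0.0431% of 13908 genes were called higher and 0.00719% lower in shTbl1xr1, 0.0503% in all. Before adjustment, Pnpla2 was the 1 member with p under 0.05 and was higher, as 7.9% of tested genes were. DESeq2 called 1 member (Pnpla2, higher), against 1.78% of genes called higher, 0.338% called lower and 2.12% in all. By limma-voom 0 members were called, beside 5 of 13908 genes called higher and 0 lower. All 9 log2 fold changes were positive, with a median of 0.45, beside 7037 positive among all 13908 genes and a median of 0.01. That evenness of sign depended on scaling, on the method and on the libraries used. With libraries scaled by size alone, which moved the median of all genes to -0.27, 5 of the 9 were positive and their median was 0.11. With TMM kept, 6 were positive by limma-voom, 7 with shTbl1xr1 3 and 4 alone against shNC and 6 with the shallow pair alone. By DESeq2 all 9 were positive. For 1 member (Pnpla2) all 4 shTbl1xr1 libraries lay above all 4 shNC libraries, a pattern that 3.88% of tested genes showed (1.01% by size alone, where no member did).

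**Figure D1:**
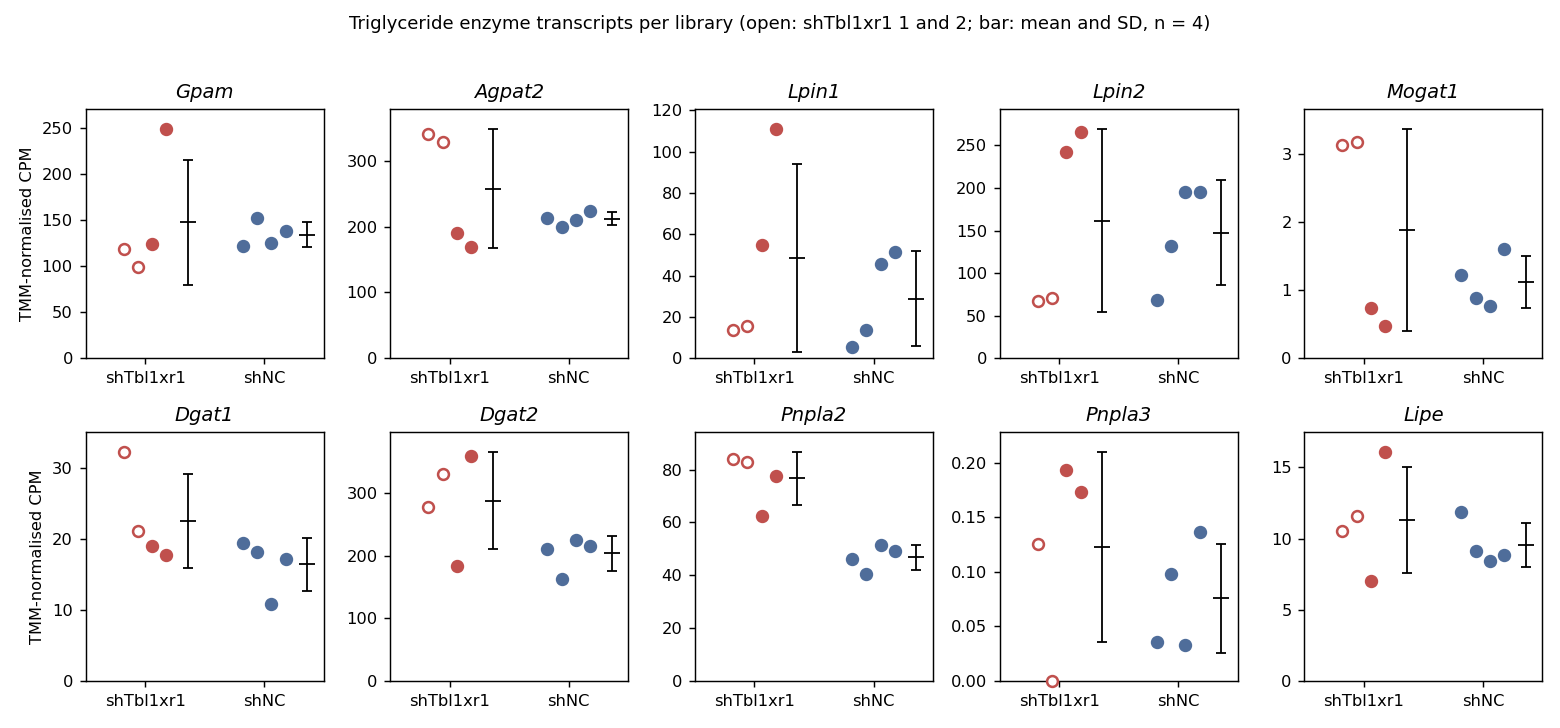
TMM-normalised CPM of the 10 enzymes in each library, shTbl1xr1 left and shNC right, with open points for the shallow shTbl1xr1 1 and 2 and bars for the mean and SD of 4 libraries. Pnpla2 is the panel in which the groups do not overlap (62.3 to 84.0 CPM in shTbl1xr1, 40.4 to 51.4 in shNC), and the axis of Pnpla3 ends near 0.2 CPM.

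Among the lipolysis enzymes, Pnpla2 (ENSMUSG00000025509.15; chromosome 7, 141455198 to 141460743, plus strand, mm10), the lipase that starts triglyceride breakdown, was the member with the smallest p. It had 84.0, 82.7, 62.3 and 77.5 CPM in shTbl1xr1 1 to 4 and 46.2, 40.4, 51.4 and 49.3 CPM in shNC 1 to 4. Every shTbl1xr1 library was above every shNC library, in the shallow and in the deeper pair alike. The means were 76.6 ± 9.93 CPM in shTbl1xr1 and 46.8 ± 4.76 CPM in shNC (SD, n = 4 each). This came to 0.71 on the log2 scale (SE 0.15, unadjusted p = 0.00108, adjusted p = 0.214 by edgeR). DESeq2 gave 0.72 (SE 0.16, adjusted p = 0.0015). With shTbl1xr1 3 and 4 alone against shNC the log2 fold change was 0.58 (SE 0.15, adjusted p = 0.256), and with the shallow pair alone 0.83 (SE 0.12, adjusted p = 0.00107).

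The Pnpla2 difference depended on how libraries were scaled. TMM divided the shallow pair by factors of 0.734 and 0.675, against 1.15 and 1.10 for shTbl1xr1 3 and 4 and 1.08 to 1.16 for shNC, on top of the library totals. Scaled by size alone, Pnpla2 stood at 61.6, 55.9, 71.8 and 85.2 CPM in shTbl1xr1 1 to 4 and at 49.98, 45.0, 59.9 and 56.0 CPM in shNC 1 to 4. There 3 of 4 shTbl1xr1 libraries lay above all shNC libraries, and shTbl1xr1 2 lay inside the shNC range. The log2 fold change was then 0.38 (SE 0.18, adjusted p = 0.583 by edgeR), beside the median of -0.27 over all genes. On the authors' TPM scale, which also divides by transcript length and applies no scaling between libraries, the values were 30.7, 26.7, 53.8 and 62.9 in shTbl1xr1 and 31.1, 33.1, 44.4 and 41.5 in shNC, with the shallow pair below all shNC libraries. In shTbl1xr1 3 and 4, by contrast, Pnpla2 was above every shNC library on each of these scales.

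**Figure D2:**
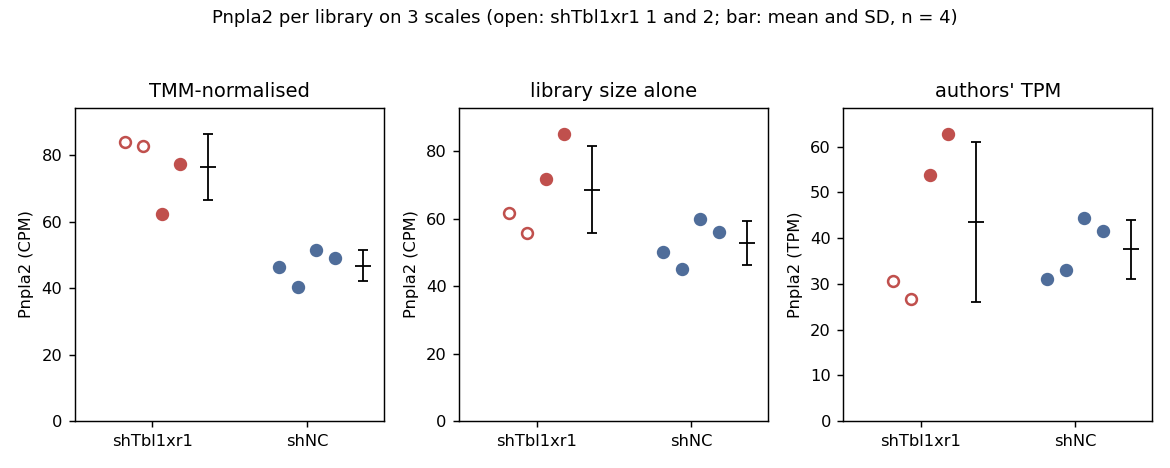
Pnpla2 per library as TMM-normalised CPM, as CPM by library size alone and as the authors' TPM, shTbl1xr1 left and shNC right, with open points for shTbl1xr1 1 and 2 and bars for the mean and SD (n = 4). The filled shTbl1xr1 points are above all shNC points in each panel, while the open ones move from above the shNC range under TMM to below it in TPM.

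The 250 bases before the annotated Pnpla2 start are given as the stretch next to the member that differed most evenly, from RefSeq on GRCm38.p6, 5′ to 3′ on the plus strand at chr7:141454938-141455187.
Pnpla2: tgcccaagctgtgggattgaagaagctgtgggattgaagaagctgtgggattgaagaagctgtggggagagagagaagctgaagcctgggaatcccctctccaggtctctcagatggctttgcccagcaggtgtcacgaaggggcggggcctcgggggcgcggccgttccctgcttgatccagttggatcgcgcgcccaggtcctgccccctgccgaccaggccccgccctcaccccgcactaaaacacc
None of the motifs searched on both strands, namely the E-box CACGTG, the sterol element TCACNCCAC, CCAAT, direct repeats of AGGTCA spaced by 1 or by 4 bases, and ACANNNTGT, was found in its window of 300 bases, so no letters are in capitals.

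Lipe (ENSMUSG00000003123.15; chromosome 7, 25379527 to 25398710, minus strand), hormone-sensitive lipase, cuts diacylglycerol and is best known from adipose tissue. It had 10.5, 11.6, 7.05 and 16.1 CPM in shTbl1xr1 1 to 4 and 11.8, 9.14, 8.40 and 8.85 CPM in shNC 1 to 4, with the highest and the lowest value both in shTbl1xr1. The groups overlapped (log2 fold change 0.25, SE 0.25, edgeR adjusted p = 0.676), and the value was 0.005 without shTbl1xr1 4, 0.42 without shTbl1xr1 3 and -0.04 by size alone. Adipose tissue is rich in Lipe and Pnpla2, so its markers were read. Of 7 adipocyte markers, Lep had 0 counts in all libraries, and Adipoq, Plin1, Cfd, Retn and Cidea each stayed at or under 0.797 CPM. Fabp4, which endothelial cells also express, made up the rest, with summed marker levels of 13.8 to 17.5 CPM in shTbl1xr1 and 16.8 to 24.6 CPM in shNC.

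Pnpla3 (ENSMUSG00000041653.5; chromosome 15, 84167837 to 84187236, plus strand), a lipid droplet protein related to Pnpla2, was close to undetected. It had 1, 0, 6 and 7 counts in shTbl1xr1 1 to 4 and 1, 3, 1 and 4 counts in shNC 1 to 4. The count of 0 in shTbl1xr1 2 allows up to 0.414 CPM (3 counts; counting error only), which is above the highest value in any library, 0.193 CPM. Counts this low do not settle whether the groups differed. In a fit without the filter on low counts the log2 fold change of Pnpla3 was 0.90 (SE 0.74, adjusted p = 0.632 by edgeR). Pnpla3 transcripts per Pnpla2 transcript, from the authors' TPM, were between 0 and 0.00446 in shTbl1xr1 and between 0.000901 and 0.0041 in shNC.

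Partners of Pnpla2 were read from a list of 14 other lipolysis genes, of which 13 were tested, 6 with positive and 7 with negative log2 fold changes, and 0 passed by edgeR. Abhd5, the activator of Pnpla2, had 41.7 ± 8.32 CPM in shTbl1xr1 and 33.1 ± 3.92 CPM in shNC (SD, n = 4 each), or 0.33 on the log2 fold scale (SE 0.18, edgeR adjusted p = 0.47). G0s2, the inhibitor of Pnpla2, had 25.7, 67.0, 23.0 and 10.9 CPM in shTbl1xr1 1 to 4 and 58.3, 20.7, 127 and 72.0 CPM in shNC 1 to 4. Its groups overlapped, and shNC 2 was lower than 3 of the 4 shTbl1xr1 libraries (log2 fold change -1.15, SE 0.61, edgeR adjusted p = 0.459). Without shNC 3 the value was -0.69, and without shTbl1xr1 2 it was -1.82. For Mgll, monoacylglycerol lipase, the log2 fold change was -0.34 (SE 0.22, edgeR adjusted p = 0.522).

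Of the lipases that act outside cells, Lipc (hepatic lipase, which acts on lipoproteins in the sinusoids) had 99.6, 122, 71.6 and 82.7 CPM in shTbl1xr1 1 to 4 and 54.4, 30.7, 27.3 and 45.7 CPM in shNC 1 to 4. The groups did not overlap, and its log2 fold change of 1.25 (SE 0.26, edgeR adjusted p = 0.196) was the highest among the 42 tested genes of the wider pathway. Scaled by size alone it was 0.90 (adjusted p = 0.477 by edgeR). In TPM the groups overlapped: Lipc in the shallow pair had 44.3 and 49.3, inside the shNC range of 40.8 to 58.8. Lpl, lipoprotein lipase, named after its values were seen, had 76.9 ± 12.04 CPM in shTbl1xr1 and 44.2 ± 10.6 CPM in shNC (SD, n = 4 each), also without overlap (log2 fold change 0.80, SE 0.21, edgeR adjusted p = 0.29). Scaled by size alone, Lpl in shTbl1xr1 1 was 53.6 CPM, inside the shNC range of 34.6 to 59.9 CPM. In TPM, Lpl in the shallow pair had 12.05 and 13.05, inside the shNC range of 10.35 to 16.68. DESeq2 called both (adjusted p = 0.0018 for Lipc and 0.0307 for Lpl).

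On the synthesis side, Gpam, the mitochondrial acyltransferase, overlapped between groups. Gpam (ENSMUSG00000024978.11; chromosome 19, 55067268 to 55127238, minus strand) had 119, 99.3, 124 and 249 CPM in shTbl1xr1 1 to 4 and 122, 152, 125 and 138 CPM in shNC 1 to 4. One library, shTbl1xr1 4, was far above the other 7, and the shallow pair was below all shNC libraries. The log2 fold change was 0.14 (SE 0.28, edgeR adjusted p = 0.84) and -0.24 without shTbl1xr1 4. The transcript length of Gpam that the authors' files give, averaged over its isoforms by abundance, was 6012 and 6172 bases in the shallow pair, 4300 and 4324 bases in shTbl1xr1 3 and 4, and 4154 to 5395 bases in shNC. It was longest in the shallow libraries, and its part in the level was not tested.

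Agpat2 (ENSMUSG00000026922.13; chromosome 2, 26593057 to 26604417, minus strand), which adds the second chain and whose loss causes lipodystrophy in humans and mice, split by library pair. It had 342, 330, 190 and 170 CPM in shTbl1xr1 1 to 4 and 214, 200, 211 and 224 CPM in shNC 1 to 4. On this scale the shallow pair lay above the whole shNC range and shTbl1xr1 3 and 4 below it. By size alone the shallow pair had 250.8 and 222.7 CPM, inside the shNC range of 222.5 to 254.6 CPM. In TPM it had 184.7 and 163.5, below the shNC range of 202.6 to 237.9, so the side on which it stood turned with the scaling. The log2 fold change was 0.28 (SE 0.25, edgeR adjusted p = 0.63) over all libraries, 0.66 (SE 0.11, adjusted p = 0.00194) with the shallow pair alone and -0.24 (adjusted p = 0.553) with shTbl1xr1 3 and 4 alone. It was -0.12 with all libraries scaled by size alone, and 0.11 without shTbl1xr1 1, 0.14 without shTbl1xr1 2 and 0.43 without shTbl1xr1 4. With the shallow pair alone, 21.5% of genes tested were called higher and 21.1% lower, and 4 members (Agpat2, Mogat1, Dgat2 and Pnpla2) were higher and 0 lower.

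Further genes of acylation numbered 9, of which 8 were tested, 6 with positive log2 fold changes, and 0 passed by edgeR. Gpat3, a glycerol-3-phosphate acyltransferase of the endoplasmic reticulum, had 14.3, 11.9, 16.8 and 10.2 CPM in shTbl1xr1 1 to 4 and 5.99, 6.73, 8.40 and 9.30 CPM in shNC 1 to 4. The groups did not overlap (log2 fold change 0.81, SE 0.22, edgeR adjusted p = 0.297), though they did with scaling by size alone, where shTbl1xr1 1 and 2 had 10.5 and 8.02 CPM and shNC 4 had 10.6. In TPM the groups overlapped too, with Gpat3 at 3.41 and 2.52 in the shallow pair and 2.64 to 4.69 in shNC. DESeq2 called Gpat3 (adjusted p = 0.0414). Its relative Gpat4 had 138 ± 29.5 CPM in shTbl1xr1 and 124 ± 12.1 CPM in shNC (SD, n = 4 each; log2 fold change 0.16, SE 0.18).

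Lipins varied more between libraries of one group than between the groups. Lpin1 (ENSMUSG00000020593.16; chromosome 12, 16535669 to 16610966, minus strand), a phosphatidate phosphatase that also acts as a transcriptional coactivator, had 13.8, 15.5, 54.8 and 111 CPM in shTbl1xr1 1 to 4 and 5.27, 13.4, 45.4 and 51.4 CPM in shNC 1 to 4. Its highest shNC library was 9.74 times its lowest, and the standard deviation of its log2 level inside shNC, 1.55, was above that of 99.6% of 13908 genes (median 0.20). Its log2 fold change was 0.77 (SE 0.80, edgeR adjusted p = 0.681), and it was -0.02 without shTbl1xr1 4, 0.42 without shNC 1 and 1.20 without shNC 4.

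Lpin2 (ENSMUSG00000024052.17; chromosome 17, 71182560 to 71249817, plus strand), the main liver lipin, was low and high in much the same libraries, with a narrower range. It had 67.2, 70.4, 242 and 266 CPM in shTbl1xr1 1 to 4 and 67.8, 132, 196 and 196 CPM in shNC 1 to 4. The shallow pair and shNC 1 formed the low end, and the 5 other libraries lay between 132 and 266 CPM. The log2 fold change was 0.13 (SE 0.51, edgeR adjusted p = 0.926), -1.11 with the shallow pair alone and 0.78 with shTbl1xr1 3 and 4 alone, so the pairs of shTbl1xr1 libraries stood on opposite sides of shNC. Libraries low in Lpin2 were those with the largest mitochondrial share, 11.3% and 14.8% in the shallow pair and 7.34% in shNC 1, against 4.52% to 6.26% in the rest, and the part of this in the result was not tested.

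The likeness of the lipins to each other was a Pearson r of 0.90 over all 8 libraries and 0.98 over the 6 libraries without the shallow pair, as a description of log2 CPM in libraries that share depth and group. By the same measure over all 8 libraries, the named genes most like Lpin2 were Fkbp5 (r = 0.98), Washc2 (0.97) and Dync1h1 (0.97), and those most like Lpin1 were Tcp11l2 (0.96), Masp1 (0.96) and Klhl24 (0.95). Spearman correlations of these genes with their lipin ran from 0.88 to 0.98. That of Lpin1 with Lpin2 was 0.86 over all 8 libraries and 0.94 over the 6. Without the shallow pair other genes ranked first, Senp5 for Lpin2 (r = 0.99 over 6 libraries) and Mgea5 for Lpin1 (r = 0.997), while Fkbp5 had r = 0.98 with each lipin over these 6 libraries, and 0.94 with Lpin1 over all 8. Both lists were drawn after the lipin values were seen. They hold the named genes with the highest r among 13908 tested genes, so high values follow from that choice. Fkbp5 is a textbook target of the glucocorticoid receptor and had 20.8, 23.2, 53.7 and 55.5 CPM in shTbl1xr1 1 to 4 and 19.8, 28.3, 48.2 and 44.2 CPM in shNC 1 to 4. That Fkbp5 was low and high in much the same libraries as the lipins follows from its choice by r with Lpin2. Its log2 fold change was 0.14 (SE 0.39, edgeR adjusted p = 0.895), and a part of this receptor was not tested. For Pnpla2, the 3 most alike over 8 libraries were Cyp4f15 (r = 0.99), P2ry2 (0.99) and Acsf2 (0.98), and over the 6 libraries without the shallow pair they were Nol6, Cyp2b10 and Limd1 (0.99 each).

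**Figure D3:**
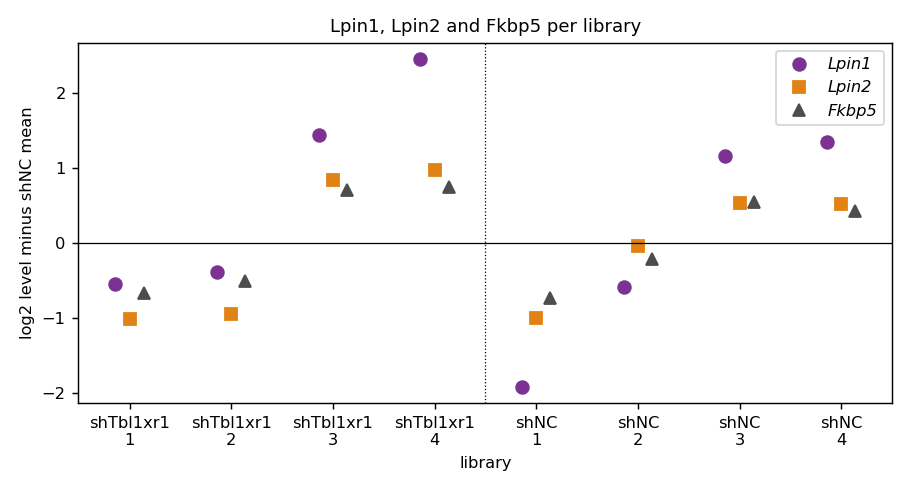
Log2 level of Lpin1, Lpin2 and Fkbp5 in each library relative to the mean of the 4 shNC libraries, with shTbl1xr1 1 to 4 left of the dotted line and shNC 1 to 4 right of it. The 3 genes are low together in shTbl1xr1 1 and 2 and shNC 1 and high together in shTbl1xr1 3 and 4 and shNC 3 and 4, with Lpin1 spanning -1.92 to 2.45. They part in shNC 2, where Lpin1 is at -0.59, below its level in shTbl1xr1 1 and 2, Lpin2 at -0.05 and Fkbp5 at -0.22. Fkbp5 was chosen for its likeness to Lpin2 in these same libraries.

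The windows before the lipin starts are shown because these genes were low and high in much the same libraries, 5′ to 3′ from RefSeq on GRCm38.p6, with an E-box CACGTG in capitals. They lie at chr12:16610967-16611216 on the minus strand for Lpin1 and at chr17:71183282-71183531 on the plus strand, the first of 3 annotated windows, for Lpin2.
Lpin1: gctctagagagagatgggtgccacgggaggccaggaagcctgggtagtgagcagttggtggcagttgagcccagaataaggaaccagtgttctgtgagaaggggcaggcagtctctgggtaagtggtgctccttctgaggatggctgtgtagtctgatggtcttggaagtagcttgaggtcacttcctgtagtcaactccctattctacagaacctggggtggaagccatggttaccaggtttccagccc
Lpin2: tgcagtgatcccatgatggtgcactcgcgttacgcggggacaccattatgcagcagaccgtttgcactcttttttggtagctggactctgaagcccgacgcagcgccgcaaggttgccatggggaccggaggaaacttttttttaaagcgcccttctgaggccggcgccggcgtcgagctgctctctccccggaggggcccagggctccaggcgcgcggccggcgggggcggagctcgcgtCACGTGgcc
An E-box, the site that clock and MYC family factors are known to read, began 9 bases before the RefSeq start of this Lpin2 window. That start is not the gene start of Lpin2 given above, and the other Lpin2 windows held no E-box. It overlapped no other motif, and 7.15% of 32851 promoter windows of 300 bases held an E-box. Lpin1 held none of the 6 motifs. Of the 8 members with a RefSeq window (12 windows in all), an E-box was also in 1 window of Lipe, CCAAT in windows of Gpam, Lpin2, Mogat1 and Pnpla3 (37.4% of all windows), and the spaced repeat ACANNNTGT, added after the data were seen, in 1 window of Lipe (6.85%). The sterol element was in 0 of the 12 (1.24%), as were both direct repeats (0.0396% and 0.0152%). Dgat1 and Dgat2 had no window in the table.

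The balance of the lipins was also read per transcript. From the authors' TPM, a ratio inside each library that needs no scaling between libraries, Lpin1 over Lpin2 was 0.204, 0.219, 0.208 and 0.321 in shTbl1xr1 1 to 4 and 0.0736, 0.078, 0.196 and 0.23 in shNC 1 to 4. The 2 lowest libraries were shNC 1 and 2, the groups overlapped through shNC 4, and no test was made.

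Diacylglycerol acyltransferases make the last step. Dgat2 (ENSMUSG00000030747.5; chromosome 7, 99153658 to 99182719, minus strand), which uses newly made fatty acids in hepatocytes, had 278, 331, 184 and 360 CPM in shTbl1xr1 1 to 4 and 211, 163, 226 and 216 CPM in shNC 1 to 4. On this scale 3 shTbl1xr1 libraries were above all shNC libraries, and shTbl1xr1 3 lay inside the shNC range. By size alone the shallow pair had 203.9 and 223.8 CPM, inside the shNC range of 181.6 to 263.3 CPM. In TPM the shallow pair had 87.34 and 91.85, below the shNC range of 105.8 to 155.3. Library shTbl1xr1 4 was above every shNC library on each of these scales. The log2 fold change was 0.50 (SE 0.23, edgeR adjusted p = 0.426), and 0.17 with libraries scaled by size alone.

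Dgat1 (ENSMUSG00000022555.12; chromosome 15, 76502015 to 76511953, minus strand), a structurally unrelated enzyme for the same reaction, had 32.2, 21.1, 19.0 and 17.8 CPM in shTbl1xr1 1 to 4 and 19.3, 18.1, 10.9 and 17.2 CPM in shNC 1 to 4. On this scale the shallow pair lay above the shNC range and the deeper pair within it. By size alone shTbl1xr1 1 and 3 had 23.6 and 21.86 CPM, above the shNC range of 12.68 to 20.9 CPM. There shTbl1xr1 2 and 4, at 14.27 and 19.52 CPM, lay inside it. In TPM shTbl1xr1 1, 3 and 4 had 18.23, 16.83 and 16.22, above the shNC range of 10.54 to 16.07, and shTbl1xr1 2 had 13.03. The log2 fold change was 0.45 (SE 0.25, edgeR adjusted p = 0.468), and 0.30 without shNC 3, the lowest library. It was 0.23 without shTbl1xr1 1, 0.16 with shTbl1xr1 3 and 4 alone and 0.11 with libraries scaled by size alone. The TPM ratio of Dgat2 to Dgat1 was 4.79, 7.05, 7.34 and 14.8 in shTbl1xr1 1 to 4 and 8.07, 6.59, 14.7 and 9.08 in shNC 1 to 4, so the groups covered much the same range.

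Monoacylglycerol acyltransferases offer a side entry to diacylglycerol. Mogat1 (ENSMUSG00000012187.13; chromosome 1, 78510991 to 78538173, plus strand) was rare, with 25, 23, 23 and 19 counts in shTbl1xr1 1 to 4 and 34, 27, 23 and 47 counts in shNC 1 to 4. In CPM it had 3.13, 3.18, 0.741 and 0.471 in shTbl1xr1 1 to 4 and 1.22, 0.882, 0.763 and 1.60 in shNC 1 to 4, so that the near-equal counts spread apart once divided by depth. The shallow pair was above the shNC range and the deeper pair below it (log2 fold change 0.61, SE 0.63, edgeR adjusted p = 0.674, and -0.89 with shTbl1xr1 3 and 4 alone). Without shTbl1xr1 1 or 2 it was 0.18 and 0.19, without shTbl1xr1 4 it was 0.99, and by size alone 0.16. In TPM the split was not seen. There shTbl1xr1 1 to 3 had 2.83, 1.89 and 1.79, inside the shNC range of 1.47 to 4.12, and shTbl1xr1 4 had 1.24. Mean TPM was 1.94 in shTbl1xr1 and 2.65 in shNC, the other way round from CPM.

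Its relative Mogat2, best known from the intestine, had too few counts to be tested and is named after its values were seen. It had 9, 4, 38 and 80 counts in shTbl1xr1 1 to 4 and 1, 3, 6 and 4 counts in shNC 1 to 4, or 1.13, 0.552, 1.22 and 1.98 CPM in shTbl1xr1 and 0.0359, 0.098, 0.199 and 0.136 CPM in shNC. The groups did not overlap, but how many genes with so few counts show this was not counted. Aqp7, also untested on the wider list, did not overlap either, with 2, 1, 50 and 4 counts in shTbl1xr1 1 to 4. It had 0, 0, 0 and 1 counts in shNC 1 to 4, while Aqp3 and Pnpla1, untested too, overlapped. In a fit without the filter on low counts the log2 fold change of Mogat2 was 3.37 (SE 0.56, adjusted p = 0.0598 by edgeR), a size that depends on how such small counts are handled.

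**Figure D4:**
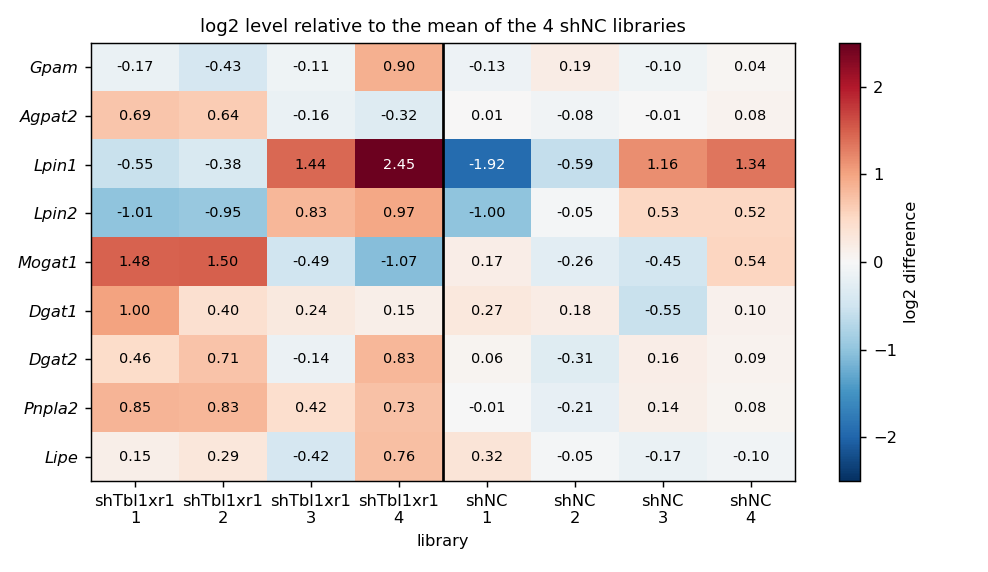
Log2 level of the 9 tested members in each library minus the mean of the 4 shNC libraries (red above, blue below), shTbl1xr1 1 to 4 left of the line and shNC 1 to 4 right of it. Pnpla2 is above the shNC mean in all 4 shTbl1xr1 libraries (0.42 to 0.85), while Agpat2, Mogat1, Lpin1 and Lpin2 have opposite signs in shTbl1xr1 1 and 2 and in shTbl1xr1 3 and 4.

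Ordered by length-scaled level (mean TPM ± SD, n = 4), the shNC livers had Agpat2 at 220 ± 17.9, Dgat2 at 132 ± 21.9, Lpin2 at 47.4 ± 22.5, Gpam at 40.5 ± 8.96, Pnpla2 at 37.5 ± 6.43, Dgat1 at 14.4 ± 2.60, Lpin1 at 7.94 ± 6.48, Lipe at 4.50 ± 0.565, Mogat1 at 2.65 ± 1.16 and Pnpla3 at 0.0925 ± 0.064. Neighbours with overlapping ranges were Lpin2 and Gpam, Gpam and Pnpla2, Dgat1 and Lpin1, and Lpin1 and Lipe. In shTbl1xr1 the order was the same except that Pnpla2 (43.5 ± 17.6 TPM) stood before Gpam (36.2 ± 33.2 TPM), and all neighbours but Mogat1 and Pnpla3 overlapped.

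The wider pathway was read from 46 further genes, of which 42 were tested. Of these, 23 had positive and 19 negative log2 fold changes with a median of 0.06, and 0 passed by edgeR. Unadjusted edgeR p was under 0.05 for 3 of the 42 (Gpat3, Lipc and Lpl), all higher. Among all 13908 genes it was so for 1099 higher (7.9%) and 516 lower. DESeq2 called the same 3, beside 1.78% of all genes called higher and 0.338% called lower. Glycerol supply, with 4 of 6 tested, had 1 positive and 3 negative values. For Gpd1, which makes glycerol 3-phosphate, the log2 fold change was -0.04 (SE 0.22) and Gk, glycerol kinase, -0.28 (SE 0.21, edgeR adjusted p = 0.558). In the branch to phospholipids, all 9 tested, 5 were positive, and Pemt, which methylates phosphatidylethanolamine to phosphatidylcholine, had 379 ± 191 CPM in shTbl1xr1 and 231 ± 30.0 CPM in shNC (SD, n = 4 each; log2 fold change 0.71, SE 0.36, edgeR adjusted p = 0.442), and -0.06 with shTbl1xr1 3 and 4 alone.

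Among 8 regulators, all tested, 5 were positive. Srebf1, the insulin-responsive activator of lipid synthesis genes, had 231, 169, 171 and 210 CPM in shTbl1xr1 1 to 4 and 146, 217, 70.2 and 118 CPM in shNC 1 to 4 (log2 fold change 0.51, SE 0.31, edgeR adjusted p = 0.501). Mlxipl (ChREBP), the glucose-responsive one, had 25.5, 30.9, 49.6 and 159 CPM in shTbl1xr1 1 to 4 and 49.0, 65.5, 65.8 and 62.1 CPM in shNC 1 to 4. As with Gpam, shTbl1xr1 4 was far above the rest and of the other 3 shTbl1xr1 libraries just shTbl1xr1 3 exceeded the lowest shNC library (log2 fold change 0.14, SE 0.51, and -0.77 without shTbl1xr1 4). For Pparg the log2 fold change was 0.53 (SE 0.24, edgeR adjusted p = 0.426).

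**Figure D5:**
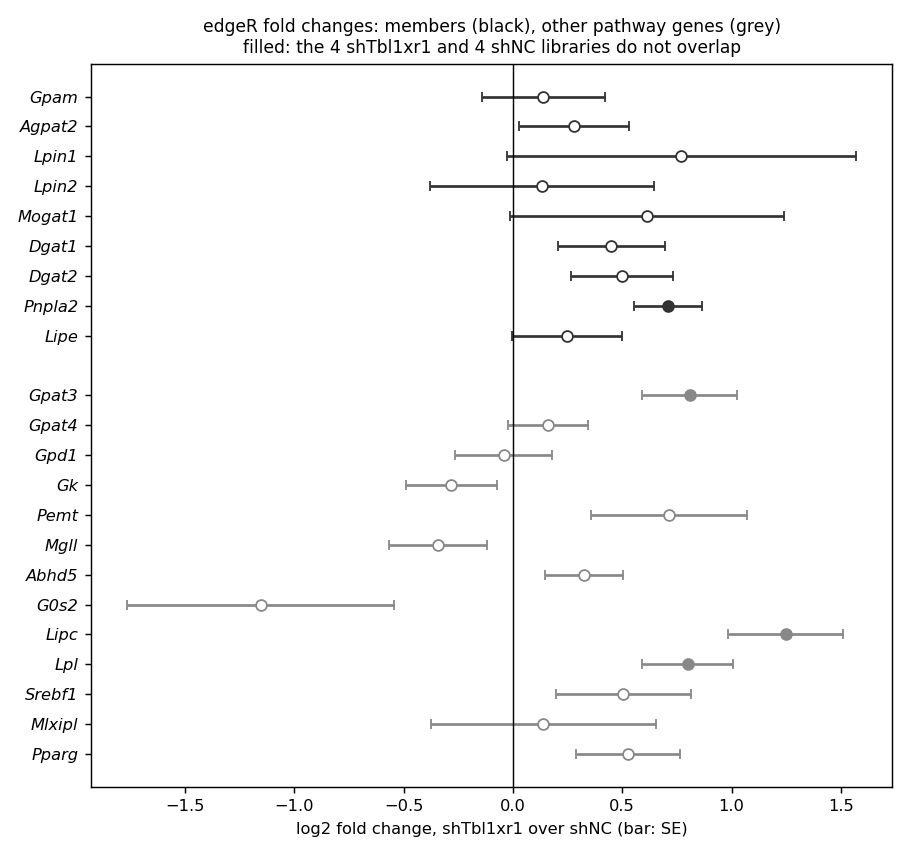
Log2 fold changes of shTbl1xr1 over shNC with their standard errors (edgeR), for the 9 tested members in black and for named genes of the wider pathway in grey, filled where the 4 shTbl1xr1 and the 4 shNC libraries do not overlap. Pnpla2, Gpat3, Lipc and Lpl are filled, with values from 0.71 to 1.25, and none passed an adjusted p of 0.05 by edgeR. Over all tested genes, 3.88% lay wholly higher in this way (1.01% with scaling by size alone). Gpat3 and Lipc are shown for the smallest p of their role groups, and Lpl was added after its values were seen. This choice favoured filled points. In the whole pathway list, 3 of the 42 tested genes were without overlap.

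Summed macrophage, endothelial and stellate cell markers were lower in the shallow pair than in the 6 other libraries. All 6 macrophage markers and all 6 endothelial markers had negative log2 fold changes, with 0 of either called by edgeR, and 5 of 6 hepatocyte markers had positive ones. Summed macrophage markers were 166 and 187 CPM in the shallow pair, 402.5 and 482.5 CPM in shTbl1xr1 3 and 4, and 382 to 599 CPM in shNC. Summed stellate cell markers were 103.6 and 93.3 CPM in the shallow pair, 448 and 221.5 CPM in shTbl1xr1 3 and 4, and 194 to 378 CPM in shNC. Summed endothelial markers were 108.5 and 91.8 CPM in the shallow pair, 186 and 176 CPM in shTbl1xr1 3 and 4, and 159 to 189 CPM in shNC. Summed hepatocyte markers (6 found) ranged from 49680 to 82110 CPM in shTbl1xr1 and from 51240 to 68700 CPM in shNC. The part of this in the levels of Agpat2, Dgat1 and Mogat1 in the shallow pair was not tested, nor was it for Pnpla2, Gpat3, Lipc and Lpl. In shTbl1xr1 3 and 4 the macrophage and endothelial sums lay inside the shNC range. The summed levels of shTbl1xr1 3 were above it for stellate cells, for cholangiocytes (227 CPM, against 30.3 to 117 CPM in shNC) and for neutrophils (11.8 CPM, against 2.52 to 7.28 CPM in shNC).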

How the data were processed

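Liver RNA was isolated in TRIzol and MGIEasy reagents were used for the libraries, per the labels' protocols. Build mm10, RSEM, STAR and DESeq2 1.30.1 appear in the submitters' processing notes. Strand setting and annotation release were not given in the sources used here, so reads of overlapping antisense genes cannot be told apart. The authors deposited, for each library, an expected count per gene (estimated fragments, not whole), TPM and FPKM, and the gene's length averaged over isoforms, per the file headers. FPKM values as deposited by the authors were not used. Gene identifiers without version were looked up in GENCODE mouse release 21 for symbol and position (55141 of 55401 matched).

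Expected counts were rounded, filtered by filterByExpr (13908 genes kept) and normalised by TMM (R 4.3.3, edgeR 4.0.16). The groups were compared by the robust quasi-likelihood F test with no covariate and Benjamini-Hochberg adjustment over all genes tested, at a threshold of 0.05. CPM are TMM-normalised, log2 levels used a prior count of 2, and the permutation test used log2 of CPM plus 1. Alternatives were DESeq2 1.42.0, limma 3.58.1, sva 3.50.0, 3 other scalings, no filter, no rounding, a replicate block and subsets of libraries, 20 in all. The members, the lists, the tests and the alternatives were chosen with earlier results of these data known. Besides the 10 members, the naming rule took the gene with the smallest p in each of 5 role groups and Gpd1, Gpat4, Abhd5, G0s2, Mgll, Srebf1 and Mlxipl. Libraries of a group differed beyond sampling noise in every pair, the closest being shTbl1xr1 1 and 2 with a chi-square per degree of freedom of 25.8. The fit was tested on simulated counts with 200 genes changed. It called 15.3% of the 2-fold and 81.6% of the 4-fold changes, with 3 false calls, so most 2-fold changes were missed there. The simulation gave a gene the same spread in both groups and no shared shift of the shallow pair. In the data the median SD of log2 levels was 0.46 in shTbl1xr1 and 0.20 in shNC. These shares may therefore not hold for the data. Of 7 hepatocyte markers listed, 6 were found by symbol. Promoter windows are those of RefSeq on GRCm38.p6. The similar patterns of Lpin1 and Lpin2, and Lpl, Mogat2, Aqp3, Aqp7, Pnpla1, Fkbp5 and the motif ACANNNTGT, were added after values were seen.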

Additional observations from a re-analysis of the deposited data

Results flagged for a closer look

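Gpam in shTbl1xr1 had 1 library, shTbl1xr1 4, far from the other 3 of its group, at 249 CPM against 99.3 to 124 CPM in shTbl1xr1 1 to 3 and 122 to 152 CPM in shNC. The gap to the next library took 0.834 of the group's range, above the 95% critical value of the Dixon test for 4 libraries. Chance gives such a gap in about 1 in 20 groups, and both groups of each member and named gene were checked.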

How the results depend on the processing

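Of the results on single genes, 389 kept direction and call under an alternative, 37 turned in sign and 14 gained a call. Log2 fold changes that turned in sign, given here as shTbl1xr1 over shNC, were with libraries scaled by size alone -0.079 for Gpam, -0.12 for Agpat2, -0.001 for Lpin2, -0.042 for Lipe, -0.10 for Gpat4, -0.021 for Abhd5 and -0.001 for Mlxipl. With limma-voom they were -0.011 for Gpam, -0.17 for Lpin2, -0.19 for Mogat1 and -0.27 for Mlxipl, and with sample weights added -0.17 for Gpam, -0.52 for Lpin2, 0.062 for Gpd1 and -0.57 for Mlxipl. With 1 surrogate variable they were -0.14 for Agpat2 and -0.64 for Mogat1. With shTbl1xr1 3 and 4 only they were -0.24 for Agpat2, -0.89 for Mogat1 and -0.055 for Pemt. With the shallow pair only they were -0.30 for Gpam, -0.99 for Lpin1, -1.11 for Lpin2, 0.061 for Gpd1, -0.045 for Gpat4 and -1.11 for Mlxipl (adjusted p = 0.00101 by edgeR). The cause was not tested.

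Leaving out each library in turn gave -0.24 to 0.29 for Gpam, -0.015 to 1.20 for Lpin1, -0.22 to 0.39 for Lpin2, -0.15 to 0.14 for Gpd1, -0.003 to 0.23 for Gpat4 and -0.77 to 0.41 for Mlxipl, with sign changes. Without a sign change, the range was 0.11 to 0.43 for Agpat2, 0.18 to 0.99 for Mogat1, 0.23 to 0.55 for Dgat1, 0.005 to 0.42 for Lipe, -1.82 to -0.69 for G0s2, -0.38 to -0.12 for Gk, -0.49 to -0.15 for Mgll, 0.44 to 0.97 for Pemt and 0.29 to 0.81 for Srebf1. Pnpla2 ranged from 0.64 to 0.80 (edgeR adjusted p 0.0959 to 0.662), and Tbl1xr1 from -2.71 to -1.79. No member or pathway gene was called in any of these fits (0 in each direction). Few genes of any kind were: 0 without shNC 1, 2 or 4, and at most 28 higher and 6 lower of 14098 (without shTbl1xr1 4).

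Tbl1xr1 passed the threshold with DESeq2 (log2 fold change -2.13, adjusted p = 0.00862), with 1 surrogate variable (-1.67, adjusted p = 0.00739) and with the shallow pair only (-3.88, adjusted p = 6.6e-05). Members called higher numbered 1 with DESeq2 and 4 with the shallow pair only, against 0 otherwise. In those other fits at most 38 genes in all were called higher (1 surrogate variable). Genes of the wider pathway called higher numbered 3 with DESeq2, where 1.78% of all genes were. With the shallow pair only, 10 were called higher and 6 lower, beside 21.5% and 21.1% of all genes.

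Replicate numbers were not taken to pair the libraries: deviations from the group means of libraries numbered 1 to 4 correlated at 0.379, -0.0737, 0.305 and 0.12, so not every pair was over 0.1. Library shTbl1xr1 2 correlated best with shNC 1 (0.375), not with its own number. With the replicate block Pnpla2 was 0.71 (edgeR adjusted p = 0.363), Tbl1xr1 -2.47 (adjusted p = 0.217), Lpin1 0.73 (SE 0.24, against 0.80 without the block; adjusted p = 0.409), Lpin2 -0.033 and Mlxipl -0.29. There 0 members and 0 pathway genes were called, beside 4 of 13908 genes higher and 1 lower.

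The main limits are depth and spread. Pnpla3, Mogat1 and Mogat2 rest on few counts, and the shallow pair makes up 2 of the 4 shTbl1xr1 libraries, at 10728583 and 10895508 counts. A p that misses the threshold here does not show that levels were alike.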
